A study of Drosophila melanogaster with 11 samples.

Results

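The genes described here encode the machinery that writes and reads N6-methyladenosine (m6A), the methylated adenosine of messenger RNA, in Drosophila. They were chosen by name, and all 8 were listed among the 16509 gene symbols of the RNA-seq files: the writer core genes Ime4 (now Mettl3) and CG7818 (now Mettl14), the writer accessory genes fl(2)d, vir, nito and CG7358 (now Flacc), and the YTH-domain readers YT521-B (now Ythdc1) and CG6422 (now Ythdf). All samples were S2 cells, a cultured Drosophila line with hemocyte-like features, grown in serum-free medium. Transcripts were measured by polyA RNA-seq in 2 libraries labelled as dTet control and 2 labelled as dTet knockdown; the labels name no knockdown reagent, and they attach the pull-down protocol to these libraries as well. dTet is the fly gene for the Tet dioxygenase, which oxidises methylcytosine to hydroxymethylcytosine. RNA hydroxymethylcytosine was mapped in total RNA by hMeRIP-seq, sequencing of RNA pulled down with a rat monoclonal antibody to the modified base, in 1 sample of CRISPR-edited S2 cells with yellow, the editing control, as the edited gene, and 1 sample with dTet as the edited gene. The labels do not say whether an edited line was 1 clone, nor what the edit did to dTet.

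The m6A writer is a nuclear complex. In it the catalytic subunit Mettl3 pairs with Mettl14, which helps to hold the RNA. The accessory subunits bring this pair to its targets: fl(2)d, the fly WTAP, and vir are scaffold proteins, nito is an RNA-binding protein of the Spen family, and Flacc links nito to fl(2)d. Readers bind the methylated base through the YTH domain, Ythdc1 in the nucleus and Ythdf in the cytoplasm. In flies the pathway is known above all for its part in splicing of Sex-lethal (Sxl) and in neuronal function.

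Expression values are signals, that is, scaled reads per 40-bp bin averaged over the exons of a gene, so they are per length and may be compared between genes. The libraries held between 4910612 and 6950552 bin counts over all exons, a bin count being 1 read in 1 bin. A single bin count was worth from 0.340 signal in the deepest library, control 1, to 0.477 in the shallowest, dTet knockdown 2. Coverage along genes was least even in control 1. Over 4229 genes with 3 or more separate exons, the median absolute log2 ratio between the outermost exons was 1.73 there, against 1.19 to 1.28 in the other 3 libraries. dTet itself (CG43444; 3L, 2786206 to 2879157 in dm3) had 6.93 and 8.01 signal in control libraries against 4.88 and 6.60 in knockdown libraries. Both knockdown values lay below both controls, but the log2 change of -0.34 did not pass the test (limma, standard error 0.21, adjusted p = 0.9995), and it ranged from -0.52 without dTet knockdown 2 to -0.15 without dTet knockdown 1. The comparisons that follow use these labels, although the targeted transcript did not pass the test. Of 8 hemocyte markers 7 had a mean signal of 1 or more, NimC1 being the exception, and the summed signal of the 8 was 160 to 189. Most of this sum came from Cg25C and vkg, at 74.6 and 62.8 mean signal over the 4 libraries, while Pxn was at 1.77. Summed signals of 5 markers each were 2.13 to 2.70 for neurons, 2.28 to 2.48 for germline and ovary and 0.050 to 0.262 for muscle. Most of the neuron sum came from elav, at 2.07 mean signal, and most of the germline and ovary sum from aub, at 2.13. Both means were above that of Pxn. The markers nSyb, Syt1, Mhc, up, nos and bam were listed at 0 in all 4 libraries.

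Both core genes of the writer had low signals. Ime4 (3R, 19857878 to 19859978; 1968 bp of exon) had 0.280 and 0.888 signal in control libraries against 0.460 and 0.747 in knockdown libraries. It rested on 42, 116, 63 and 80 bin counts, so its level is known only roughly, and the controls enclosed both knockdown values. The mean of 0.594 over the 4 libraries was under the minimum of 1 set for testing. Without that minimum its log2 change was 0.04 (95% interval -0.61 to 0.69; limma, adjusted p = 0.988). CG7818, the partner of the catalytic subunit (2L, 8308426 to 8309960; 1404 bp of exon), had 1.15 and 2.10 signal in control libraries against 2.71 and 1.43 in knockdown libraries. The groups overlapped, and the replicates within each group lay farther apart than the group means. CG7818 stood above Ime4 in each of the 4 libraries, by a factor of 1.91 to 5.89.

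The accessory genes spanned a range of levels. CG7358 (X, 18783010 to 18787668; 4142 bp of exon) had 2.93 and 4.52 signal in control libraries against 2.99 and 4.43 in knockdown libraries. Its low and high values thus fell in each group alike. The scaffold gene fl(2)d (2R, 9707128 to 9712057; 2480 bp of exon) had 3.57 and 3.25 signal in control libraries against 2.94 and 3.06 in knockdown libraries, which lay below both controls. nito (2R, 3849967 to 3857309; 4470 bp of exon) had 2.17 and 2.35 against 2.86 and 2.78 signal, with both knockdown libraries higher. The second scaffold gene, vir (2R, 19247714 to 19253877; 5861 bp of exon), was low, at 1.20 and 0.757 signal in control libraries against 1.37 and 0.937 in knockdown libraries, with overlapping groups.

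The nuclear reader gene stood far above the others. YT521-B (3L, 3370450 to 3374169; 3449 bp of exon) had 15.9 and 14.4 signal in control libraries against 15.8 and 15.9 in knockdown libraries, a spread of 1.11-fold from the lowest to the highest. It lay at the 93.1 percentile of the mean signal among the 6050 genes tested, against 60.6 for CG7358 and 2.23 for vir. The cytoplasmic reader gene CG6422 (3R, 20859597 to 20864970; 3258 bp of exon) had 4.03 and 2.86 signal in control libraries against 3.87 and 3.12 in knockdown libraries, with the controls enclosing both knockdown values. The signal of YT521-B was 3.95 to 5.08 times that of CG6422 in the 4 libraries.

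**Figure D1:**
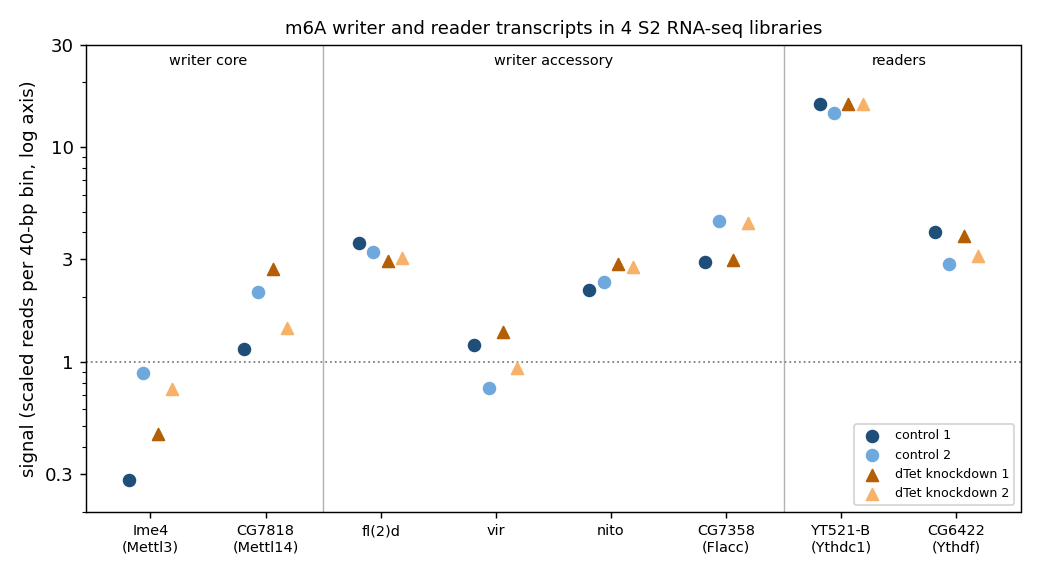
Signal of each m6A gene (vertical log axis, scaled reads per 40-bp bin) in the 4 RNA-seq libraries, with circles for control and triangles for dTet knockdown libraries; the dotted line marks the minimum mean signal of 1 for testing. YT521-B sits at 14.4 to 15.9 in all libraries, while Ime4 lies between 0.280 and 0.888.

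In order of mean signal over the 4 libraries the genes ran YT521-B (15.5), CG7358 (3.72), CG6422 (3.47), fl(2)d (3.20), nito (2.54), CG7818 (1.85), vir (1.07) and Ime4 (0.594). YT521-B was 4.17 times the next gene, and its lowest library lay above the highest of any other m6A gene. CG7358, CG6422 and fl(2)d had overlapping ranges, so their order is not settled. The ranges of fl(2)d and nito did not overlap, while those of nito and CG7818, of CG7818 and vir, and of vir and Ime4 did. Some exons of nito and CG7818 overlap those of other genes. With groups of overlapping exons that touch another gene left out, nito had 1.13 mean signal (20 of 114 bins). CG7818 then had 2.40 (18 of 36 bins), so the order of nito and CG7818 is not settled.

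The knockdown comparison asked whether transcripts of the m6A machinery differed where dTet was the labelled knockdown target. Of the 8 genes, 7 reached a mean signal of 1 and were tested, and 0 passed the threshold of an adjusted p under 0.05, as did 0% of all genes tested. At an unadjusted p under 0.05 there were also 0 of the 7, against 245 of 6050 (4.05%). On the log2(signal + 1) scale 5 of the 7 had a change above 0 and 2 below, against 2738 above and 3312 below among the 6050 genes tested. Of the 2 below, CG7358 was at -0.0008. The median of the 7 was 0.06, beside -0.03 over all genes tested. Values ran from -0.14 for fl(2)d (95% interval -0.60 to 0.32) to 0.23 for nito (-0.24 to 0.70), each with adjusted p = 0.9995 in limma. CG7818 had 0.22 (-0.46 to 0.89), vir 0.12 (-0.51 to 0.76), CG6422 0.02 (-0.49 to 0.54) and CG7358 0.00 (-0.58 to 0.58). The narrowest interval belonged to YT521-B, at 0.06 with bounds of -0.34 and 0.46, which correspond to 0.793 and 1.38 times the control on the scale of signal + 1. Changes within these bounds could not be told from none with 2 libraries a group. Only for nito did both knockdown libraries lie above both controls, which held for 13.2% of all genes tested, and only for fl(2)d below, which held for 17.4%. In bulk RNA, fewer cells that express a gene and less RNA per cell cannot be told apart.

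**Figure D2:**
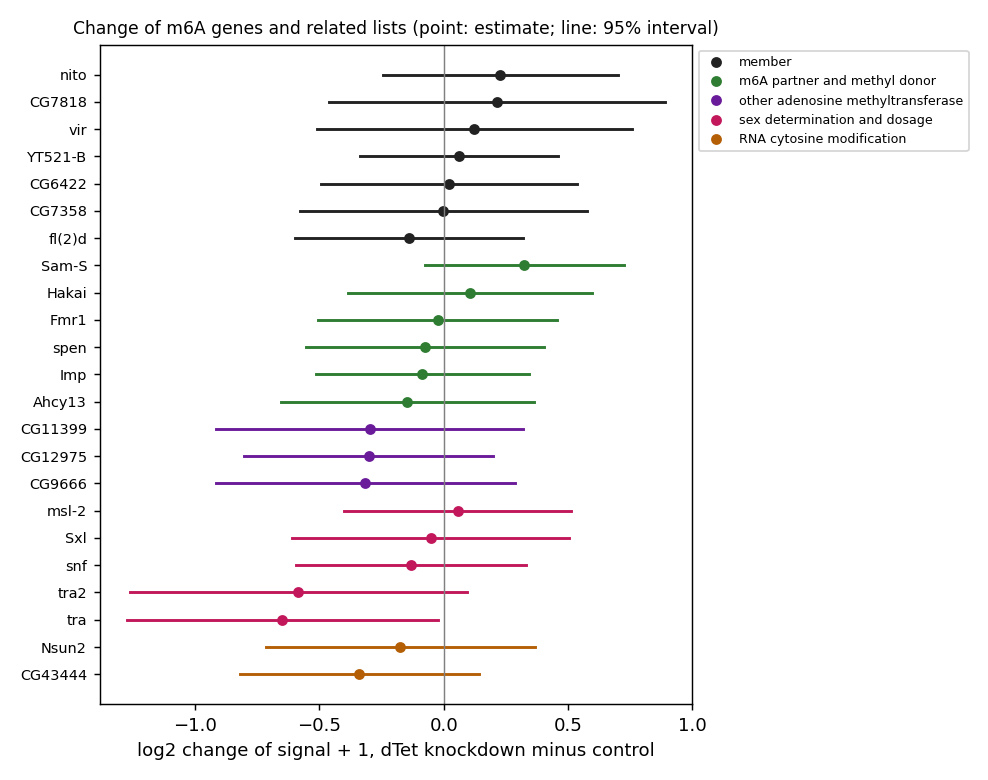
Log2 change of signal + 1 (horizontal axis, dTet knockdown minus control) for the 7 m6A genes tested and the 16 tested genes of the related lists; points are limma estimates and lines their 95% intervals. The m6A genes lie between -0.14 and 0.23 and every one of their intervals includes 0.

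Exon by exon, 37 of the 48 listed exons of these genes had a mean signal of 1 or more. Of these, 0 passed the threshold (limma, smallest adjusted p over these exons 0.999), as did 0% of the 27881 exons tested, and 1 had an unadjusted p under 0.05, against 3.86% of all exons. That exon was in nito (2R, 3856755 to 3857012), with 2.18 and 2.79 signal in control libraries against 5.64 and 4.70 in knockdown libraries, a log2 change of 0.82. Of its length 87.5% also lies in an exon of CG8726, and reads there counted for both genes. A long nito exon that touches no other gene (3850956 to 3852830) had 1.55 and 2.29 against 2.68 and 2.68 signal (log2 change 0.34). In all, 16.5% of the exonic length of nito, 6.05% of that of CG7818 and 1.26% of that of vir lay in exons of other genes, and none of the remaining 5 genes shared any. When all groups of overlapping exons that touch another gene were left out, nito had a log2 change of -0.26 with a standard error of 0.33, but this rests on 20 of its 114 bins, since the group with the long exon was left out whole.

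Exon signals varied along vir, Ime4, CG7818 and CG6422. In vir the exon from 19247714 to 19248089 had 2.07 and 0.273 signal in control libraries against 2.68 and 3.14 in knockdown libraries, and the exon from 19249272 to 19249968 had 1.17 and 0.0434 against 1.98 and 1.96. Control 2 was the low library at both places, while it was the highest of the 4 at the last vir exon (19253711 to 19253877), at 1.87 against 0.381 to 0.816. Ime4 was listed at 0 in its first exon in genome order in 3 libraries, and its longest exon (19858481 to 19859978) had 0.376 and 1.02 signal in control libraries against 0.215 and 0.903 in knockdown libraries. CG7818 had most of its signal in the middle exon (8308681 to 8309197), at 1.62 and 3.57 against 5.15 and 2.64. CG6422 was highest in its first group of overlapping exons in genome order, whose longest exon (20859597 to 20860344) was at 8.46 and 4.27 signal in control libraries against 6.68 and 5.42 in knockdown libraries, and low in its last exon (20864665 to 20864970), at 0.340 and 1.76 against 1.12 and 0.596. Between these outermost exons the log2 ratio for CG6422 was -2.82 in control 1 and -0.94 in control 2. Unevenness by this ratio was not a trait of the low genes. It was largest in size for YT521-B, at -2.99 to -4.28, while Ime4 and CG7818 lay below the median absolute ratio over genes in each library. Control 1 was the steepest of the 4 libraries between the outermost exons in 2 of the 8 genes, CG6422 and nito, and the least steep in 3, vir, CG7358 and YT521-B.

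**Figure D3:**
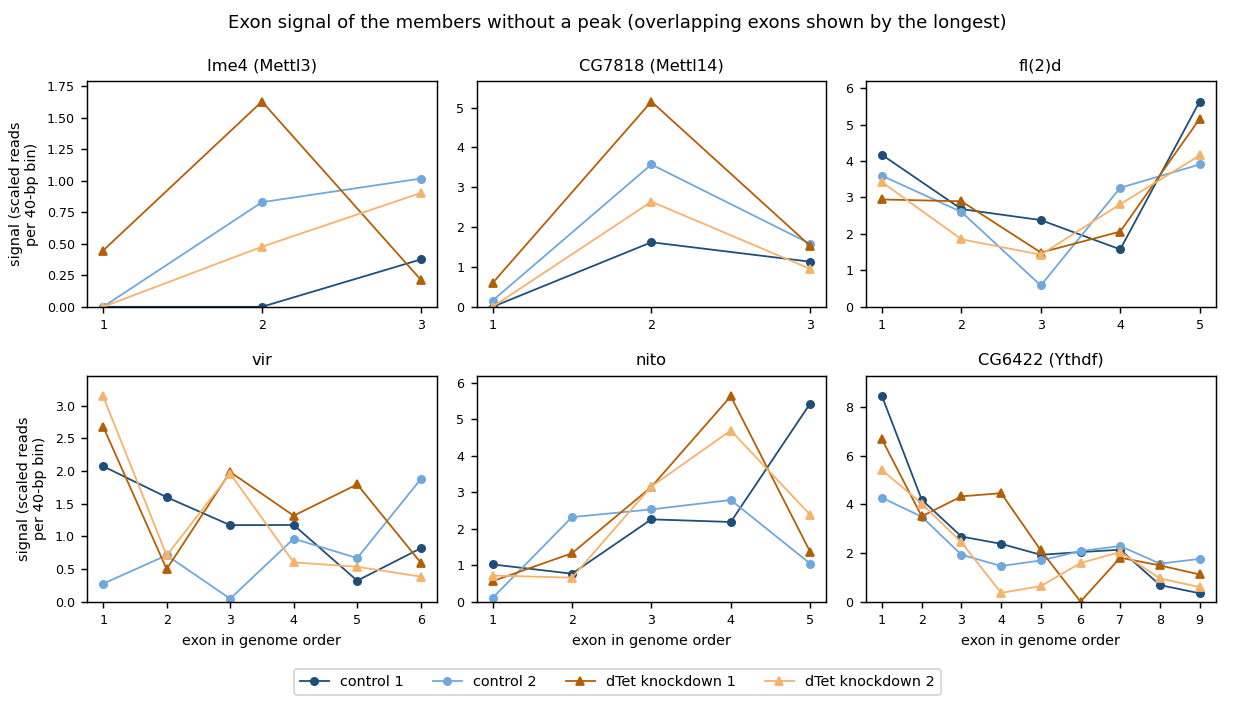
Exon signal (vertical axis, scaled reads per 40-bp bin) along the 6 m6A genes without an hMeRIP peak, by exon in genome order, with 1 line per library (circles, control; triangles, dTet knockdown). Libraries of 1 group cross at many exons, as in vir, where control 2 is lowest at the first exon and highest at the last.

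Genes that work with the m6A machinery were described next, from lists that were chosen with earlier results of these data known. Partners and methyl donor supply comprised Hakai, a ubiquitin ligase of the writer complex; Sam-S, which makes the methyl donor S-adenosylmethionine; Ahcy13, which removes its by-product; spen, a relative of nito; Fmr1, which works with Ythdf in fly neurons; and Imp, whose mammalian relatives bind m6A. Of these 6 genes all were tested, 0 passed, 2 had a log2 change above 0 and 4 below, and the median was -0.05. For this and the following lists, 2738 of all 6050 genes tested were above 0 and 3312 below. Hakai had 4.68 and 6.27 signal in control libraries against 5.37 and 6.51 in knockdown libraries (log2 change 0.11). Sam-S had 11.1 and 11.7 against 15.0 and 14.2, with both knockdown libraries higher (0.32, 95% interval -0.08 to 0.73, limma, adjusted p = 0.9995). Fmr1 stood at -0.02, spen at -0.07, Imp at -0.09 and Ahcy13 at -0.15. With exon groups that touch other genes left out, Imp turned to 0.33 (standard error 0.20), resting on 104 of its 347 bins. At 5.71 mean signal Hakai was higher than each of the m6A genes other than YT521-B.

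Of 4 other genes linked to adenosine methylation, 3 were tested and 0 passed, and all 3 had log2 changes below 0 with a median of -0.30. CG9666 (now Mettl5), a ribosomal RNA methyltransferase, had 2.01 and 1.23 signal in control libraries against 1.01 and 1.15 in knockdown libraries (-0.32). Its activator CG12975 (now Trmt112) had 2.96 and 2.78 against 1.84 and 2.47 (-0.30), and CG11399 (now Pcif1), known in mammals as a methyltransferase of the cap-adjacent adenosine, 1.41 and 2.42 against 1.61 and 1.09 (-0.30). CG7544 was below the minimum, at 0.340 to 0.772 signal. With exon groups shared with other genes left out the median of this list was 0.07, over the 2 genes then tested.

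Sex determination and dosage genes had 5 of 6 tested, 0 past the threshold, 1 above 0 and 4 below, with a median of -0.13. Sxl, whose splicing is a known target of the pathway, had 2.65 and 2.88 signal in control libraries against 3.38 and 2.01 in knockdown libraries (log2 change -0.05). This signal is a mean over the exons of the gene and does not measure splicing. The splicing regulator gene tra had 2.20 and 1.53 against 0.583 and 1.08, lower in both knockdown libraries (-0.65, limma, unadjusted p = 0.0433, adjusted p = 0.9995). Its partner tra2 had 2.67 and 2.26 against 2.04 and 0.746 (-0.59). The splicing factor gene snf stood at -0.13 and the dosage compensation gene msl-2 at 0.06, and dsx was below the minimum, at 0.117 to 0.295 signal. Among cytosine modification genes, beside dTet, Nsun2, an RNA cytosine methyltransferase, had 1.81 and 2.10 against 1.35 and 1.91 signal (-0.17), and Mt2, the fly Dnmt2 that methylates transfer RNA, was below the minimum, at 0.633 and 0.754 against 0.898 and 1.08. With dTet counted, both tested genes of this list were below 0, with a median of -0.26. Over the 16 tested genes of the 4 lists, 6 had both knockdown libraries below both controls (17.4% of all genes tested did) and 1 had both above (13.2%). The 6 include dTet itself, the labelled knockdown target, and CG9666 and CG12975. With exon groups shared with other genes left out, CG9666 stood at -0.05 and CG12975 was below the minimum, at 0.781 mean signal.

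The hMeRIP lists were then searched for the m6A genes. The yellow list had 1018 peaks and the dTet list 964, with no score or height, and with 1 sample a line the lists describe these samples and allow no test of the genotype. Of the 8 genes 6 were detected, that is, had a mean control signal of 1 or more; Ime4 and vir did not. In the yellow list 0 of the 8 genes had a peak in an exon or an intron. An exonic yellow peak was found in 340 of the 6086 genes detected in the controls (5.59%). In the dTet list 2 of the 8 genes, CG7358 and YT521-B, had 1 exonic peak each; both are among the 6 detected, to be read beside 471 of the 6086 detected genes (7.74%). Exonic peaks in the dTet list and none in the yellow list were present in 188 detected genes (3.09%). None of the 8 genes had an intronic peak in either list. The nearest yellow peaks lay 250.1 kb from CG7358 and 13.7 kb from YT521-B. For the other 6 genes the nearest peak of either list was between 20.9 kb (Ime4, dTet list) and 285 kb (vir, dTet list) away.

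The CG7358 peak (X, 18785048 to 18787772 in dm3) was 2725 bp wide and the seventh widest of the dTet-list peaks on the assembled chromosome arms, where the median width was 987 bp. It covered 57.1% of the exonic length of the gene and ran 104 bp past the end of its last listed exon; 86.8% of the peak lay in exons. It met 3 of the 5 exons, namely 64.3% of the third and all of the fourth and of the last in genome order. The third had 3.25 and 7.42 signal in control RNA-seq libraries against 3.64 and 7.62 in knockdown libraries, and the last 3.68 and 8.23 against 7.51 and 6.32. Both were higher on average, at 5.48 and 6.44, than the first and second exons outside the peak, at 1.62 and 1.00. In control 1 the first exon, at 2.98, was close to the third and the last. The fourth, wholly under the peak, was low at 1.37 and was listed at 0 in dTet knockdown 1. None of the 5 exons passed the knockdown test (limma, adjusted p = 0.999). These signals are from polyA RNA of the control and knockdown cells, while the peak is from total RNA of the dTet CRISPR cells.

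The YT521-B peak (3L, 3371249 to 3372469) was 1221 bp wide and lay wholly within the first and longest exon in genome order (3370450 to 3372849), of which it covered 50.9%. That exon carried 20.5 and 18.5 signal in control libraries against 20.8 and 20.7 in knockdown libraries. A shorter form of it is listed from 3371286, close to the start of the peak, with 26.4 and 23.7 signal in control libraries against 28.8 and 28.6 in knockdown libraries. Beyond it the signal fell to 6.50 and 6.26 against 5.36 and 5.82 in the second exon (3372969 to 3373868) and to 0.946 on average in the last. The peak thus lay in the part of the gene with the highest RNA-seq signal, as the plot of exon signal and peaks shows.

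**Figure D4:**
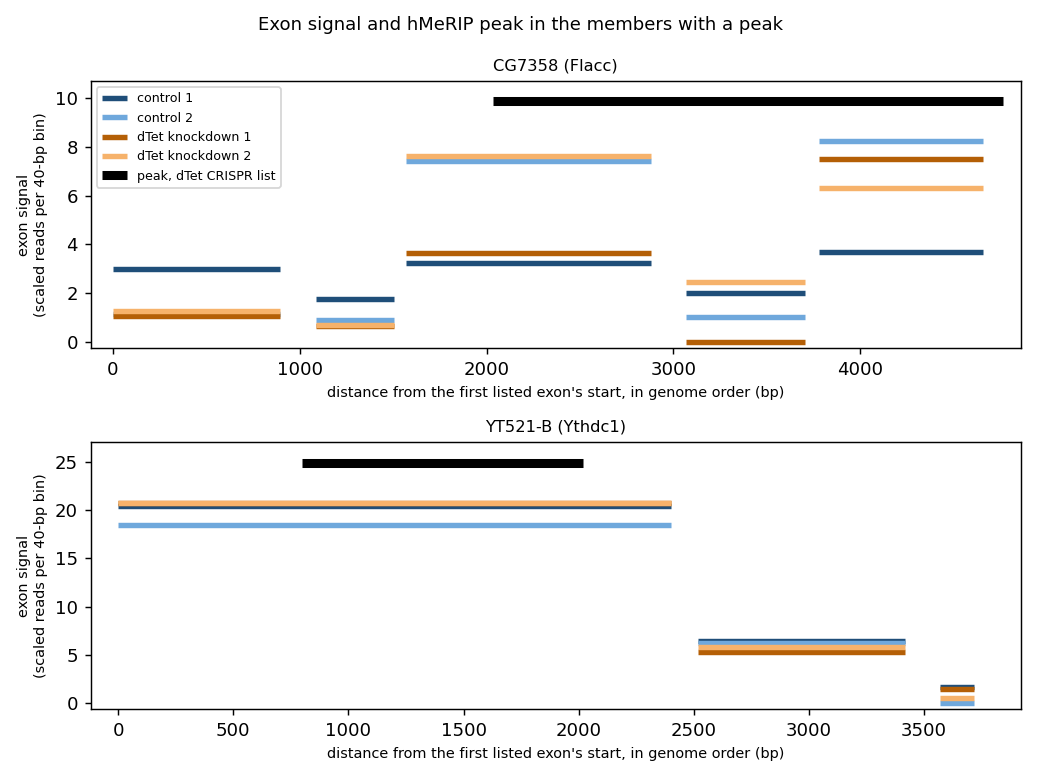
Exon signal (vertical axis, scaled reads per 40-bp bin; 1 coloured bar per exon and library) along CG7358 and YT521-B, against the distance in bp from the first exon's start; the black bar is the peak of the dTet CRISPR list. In YT521-B the peak lies in the exon at 18.5 to 20.8 signal, and in CG7358 it spans the third to the last exon.

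Peaks were more frequent among long and highly expressed genes, and both m6A genes with a peak were at that end on 1 measure or the other. In quintiles of the detected genes by control signal, the share with an exonic dTet-list peak was 2.22% in the lowest and 17.8% in the highest (95% Wilson interval 15.8 to 20.1), which holds YT521-B. By exonic length it was 1.81% in the shortest quintile and 20.6% in the longest (18.4 to 23.0), which holds CG7358 and nito. YT521-B was in the fourth quintile by length (9.29%), and CG7358 in the third by signal (7.48%), together with fl(2)d and CG6422, which had no peak. The part of level and length in the count of 2 among 8 genes was not tested. Whether the samples differed in hMeRIP depth is not known, and the dTet list had more peaks on the arms than the yellow list, 591 against 479, and wider ones, with a median of 987 against 544 bp.

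**Figure D5:**
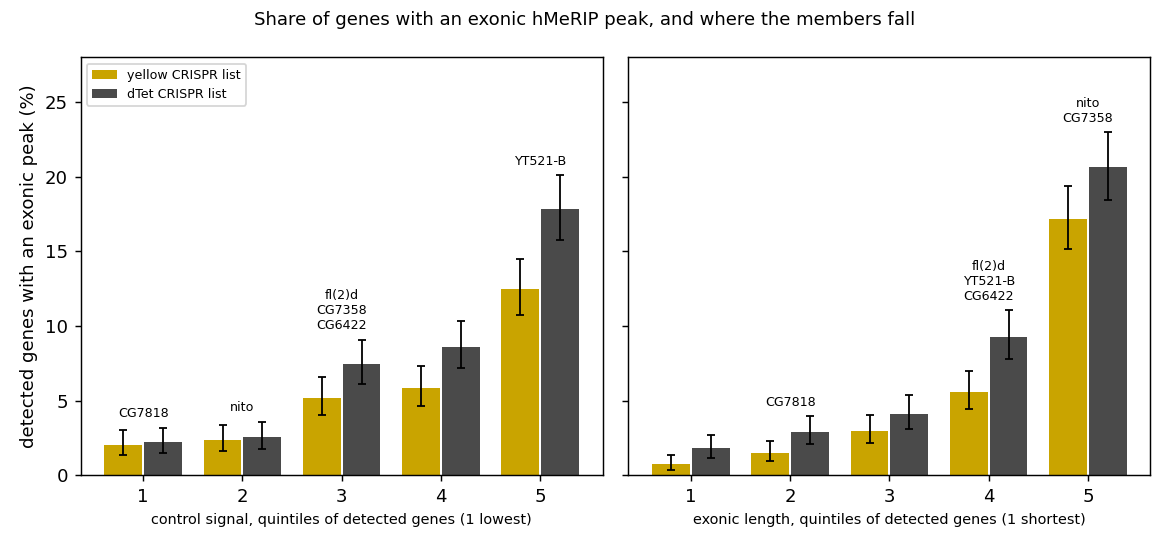
Share of detected genes with an exonic peak (vertical axis, %; bars with 95% Wilson intervals) in the yellow and dTet CRISPR lists, by quintiles of control signal (left) and of exonic length (right), with the names of the detected m6A genes above their quintile. The dTet-list share reaches 17.8% in the quintile of highest signal, with YT521-B, and 20.6% in the longest quintile, with CG7358 and nito.

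Of the 18 genes of the related lists other than dTet 15 were detected, and among these 4 had an exonic peak in the dTet list (7.74% of all detected genes did) and 2 in the yellow list (5.59%). Imp had 2 peaks in each list and spen 2 in the yellow and 1 in the dTet list, and in both genes the dTet-list peaks each met a yellow peak. Fmr1 (3R, 5929874 to 5930620) and msl-2 (2L, 3463946 to 3464677) had 1 peak each in the dTet list alone (3.09% of all detected genes), like CG7358 and YT521-B. Sam-S, at 13.0 mean signal, had none in either list. dTet itself had 2 exonic and 2 intronic peaks in the yellow list, against 1 exonic and 3 intronic in the dTet list.

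The gene closest to each m6A gene in its pattern over the 4 libraries was found by the root mean square difference of log2(signal + 1), after centring each gene on its mean. This was Rrp6 for CG7818 (0.021), JhI-26 for fl(2)d (0.012), spn-F for vir (0.014) and pcx for nito (0.0065). For CG7358 it was CG5824 (0.020), for YT521-B MED11 (0.012) and for CG6422 CG2915 (0.014). With 4 libraries such likeness is common: from 24 genes for CG7818 to 836 for YT521-B lay within 0.1.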

How the data were processed

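The 4 RNA-seq libraries (2 a group) and 2 hMeRIP-seq samples were used; 5 of the 11 samples were not analysed here. The files of the control libraries carry GFP in their names, which no label mentions; what the control cells received is not given in the sources used here. Per the submitters' processing notes, reads were aligned with BWA to dm3 and peaks called with MACS 1.4. The peak threshold, use of the input, annotation, read counter and scaling are not given in the sources used here. The deposited RNA-seq values are a signal per exon, over 78680 exons. Tested on the values, a signal times the number of 40-bp bins of an exon was a whole number of bin counts (tolerance 0.05) in 100% of exons checked; this is scaled coverage, not counts. The scale of the factor, and so the absolute depth, is unknown, and a read can count in more than 1 bin. The deposited peak lists hold positions and no other value; peak starts are printed counted from 1, exons as the files give them, which can be off by 1 bp. The strand was not used.

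Exons were merged by gene where they overlap (68582 groups), each group was represented by its longest exon, and a gene value is the bin-weighted mean of these. limma 3.58.1 in R 4.3.3 (eBayes with a trend, two-sided) was run on log2(signal + 1) of the 6050 genes whose mean signal reached 1 and adjusted over all of them (Benjamini-Hochberg), and likewise on exons. Such changes understate those of low genes. No label says if replicates came from separate cultures, so p-values measure the spread between these libraries, which may be technical. Detected genes had a mean control signal of 1 or more. A peak counted for a gene if 1 bp met an exon (bedtools 2.31.1). Wilson intervals cover counting error only. Current names came from a RefSeq table of a later assembly, which matched 3 members as current symbols and 5 as synonyms; no coordinates were taken from it. The text names all members, dTet, the genes of the lists and, for each member tested, the closest gene in pattern. The members, lists and markers were chosen with earlier results of these data known. The fit was tested on simulated data. Alternatives were the pseudocount, the filter, the trend, the replicate block, quantile normalization, the exon summary, each library left out, shared exons left out (added after seeing the data) and rules for peak overlap and width.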

Additional observations from a re-analysis of the deposited data

How the results depend on the processing

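Under all 11 alternatives to the expression fit 0 genes passed the threshold, and the smallest adjusted p of any m6A gene was 0.770 (limma). Filters on low signal used the mean of all 4 libraries, also where 1 was left out. With the replicate block 0 genes passed. In this balanced design the block cannot alter the estimated changes, only their standard errors, so it is no check of direction. No label says whether libraries with the same replicate number were prepared together. The deviations of control 1 and dTet knockdown 1 from their group means had a correlation of 0.014 across 6050 genes, which alone cannot settle this. The sign of the change turned for several m6A genes, among them CG7818 (0.22) and nito (0.23), the largest changes of the 7 tested; the cause was not tested. Leaving out 1 library gave -0.0892 to 0.52 for CG7818, -0.0387 to 0.29 for vir, -0.25 to 0.24 for CG7358, -0.0061 to 0.13 for YT521-B and -0.17 to 0.21 for CG6422, while fl(2)d (-0.19 to -0.09) and nito (0.19 to 0.27) kept their sign. CG7358 turned to 0.0001 at a pseudocount of 0.1 and to 0.0285 with quantile normalization, CG6422 to -0.0614 with a plain mean over exons, and nito to -0.26 with shared exons left out, where 20 of its 114 bins remained. The median of the m6A genes ran from -0.02 to 0.14 with 1 library left out. The median of partners and donor supply was -0.0448 to 0.0791 with 1 library left out and 0.0409 with shared exons left out. That of the other adenosine genes was -0.37 to -0.27 with 1 library left out, -0.45 at a pseudocount of 0.1 and 0.0688 with shared exons left out (2 genes), and that of sex determination genes -0.32 to -0.10. With the wider 50% of peaks only, 109 detected genes had an exonic yellow peak in place of 340, and 319 an exonic dTet-list peak in place of 471. The count of 2 m6A genes with a dTet-list peak was the same under all 3 peak alternatives. The count of 0 in the yellow list could change only where intronic peaks were added, and it stayed 0 there. The other peak rules are stricter than the main one and could not raise it. Low signal limits what can be seen of Ime4, vir and CG7818.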
